A study of Mus musculus with 15 samples.

Results

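The genes described here are 10 members of the interleukin 6 (IL-6) cytokine system in mouse skin: the ligands Il6, Osm and Lif, the receptor chains Il6ra, Osmr, Lifr, Il31ra and Il6st, and the signal genes Stat3 and Socs3. They were chosen by gene name from the 54532 genes of the deposited skin table. The study concerns the channel TRPV3, the protease receptor PAR2 and the cytokine IL-33 in keratinocytes. Skin came from 4 groups of 3 libraries: untreated wild type, wild type given MC903 for 7 days, untreated skin with the genotype label Trpv3-knockout, and skin of that label given MC903 for 7 days. The agent MC903, also called calcipotriol, is an analogue of vitamin D that inflames mouse skin and is used to model atopic dermatitis. The labels give no strain, age, sex or vehicle, and the design text speaks of conditional knockouts without saying which cells lose Trpv3 in these animals. Nothing in the labels ties a library to an animal, so each p-value measures the spread between libraries, and that spread may be technical.

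IL-6 family cytokines signal through gp130, the product of Il6st. IL-6 binds its own receptor chain, encoded by Il6ra, before it engages gp130. Oncostatin M, encoded by Osm, uses gp130 with OSMR or, in some settings, LIFR, and leukaemia inhibitory factor, encoded by Lif, uses gp130 with LIFR. IL-31, an itch cytokine, pairs IL31RA with OSMR and does not need gp130. Janus kinases bound to these chains phosphorylate STAT3, and SOCS3 is both a product of STAT3 and a brake that binds gp130. In skin, oncostatin M and IL-31 act on keratinocytes and sensory nerves, and macrophages, neutrophils and T cells are known sources of oncostatin M.

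Levels are in FPKM, read counts corrected for gene length and library size, as the authors deposited them, and are given as mean ± SD over 3 libraries. FPKM corrects for the gene length deposited, which need not be that of the RNA present. Levels of different genes are set beside each other only as far as that length holds. Log2 fold changes are differences of mean log2(FPKM + 0.5) with their standard error (SE), a scale on which changes of weakly expressed genes come out too small. A gene is said to rise, fall or pass when its limma p, adjusted by Benjamini-Hochberg over the 17646 genes tested, is under 0.05. Between 16869716 and 18485698 reads were assigned per library, so that a single read on 1 kb of gene counted for 0.0496 to 0.0615 FPKM. The library size implied by the deposited values was not this read total. It was 1.04 to 1.11 times the total in untreated libraries. After MC903 it was 0.917 to 0.964 times the total in wild type and 0.984 to 1.02 times in skin labelled knockout. Keratinocyte markers were above 0 in every library. The targeted gene did not bear out the genotype label at rest: Trpv3 read 2.06, 2.71 and 1.13 FPKM in untreated wild type and 3.17, 3.64 and 2.62 in untreated skin labelled knockout (limma adjusted p = 0.103). After MC903 its FPKM was 16.1, 17 and 19 in wild type libraries, against 6.82, 6.78 and 4.73 in skin labelled knockout, which was lower by test (log2 -1.45 ± 0.22 SE, limma adjusted p = 0.000316). The direction of each genotype result therefore rests on the label, and the groups are called labelled knockout throughout. Whole skin mixes many cell types, so fewer cells of a type and less RNA per cell cannot be told apart. After MC903, basal keratinocyte markers summed to 3489 to 4877 FPKM in skin labelled knockout and 12362 to 17305 in wild type. By test 7 of 7 were lower, where 26.1% of all genes tested were, and their part in the lower Trpv3 was not tested.

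Of the promoters of these genes, 4 are shown: those of Socs3 and Il31ra because they held the STAT motif, and those of Il6 and Lif because they held the AP-1 motif. RefSeq sequences (build GRCm38.p6) were found for 9 of the 10 genes, and Osm had no entry. Each sequence is the 250 bases before the RefSeq start, 5′ to 3′ on the gene's strand. Capitals mark matches on either strand to TTCNNNGAA (a STAT motif), GGGA followed by any 4 bases and CC (an NF-kB motif) or TGANTCA (an AP-1 motif).
Il6 (chr5:30012864-30013113, strand +): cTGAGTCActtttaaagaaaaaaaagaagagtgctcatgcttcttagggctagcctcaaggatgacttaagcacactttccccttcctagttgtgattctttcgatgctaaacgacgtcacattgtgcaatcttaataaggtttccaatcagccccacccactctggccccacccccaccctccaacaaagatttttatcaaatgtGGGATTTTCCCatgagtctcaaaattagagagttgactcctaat
Lif (chr11:4257318-4257567, strand +): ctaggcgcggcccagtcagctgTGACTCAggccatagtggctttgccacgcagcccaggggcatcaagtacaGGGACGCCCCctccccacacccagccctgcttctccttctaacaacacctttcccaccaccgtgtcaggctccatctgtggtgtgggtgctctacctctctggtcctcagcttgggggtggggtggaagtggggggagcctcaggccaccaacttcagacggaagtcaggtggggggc
Socs3 (chr11:117969367-117969616, strand -): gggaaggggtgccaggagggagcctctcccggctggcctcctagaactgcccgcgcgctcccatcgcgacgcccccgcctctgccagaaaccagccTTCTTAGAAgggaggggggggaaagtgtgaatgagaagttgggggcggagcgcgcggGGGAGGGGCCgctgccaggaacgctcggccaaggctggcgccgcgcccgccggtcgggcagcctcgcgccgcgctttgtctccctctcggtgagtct
Il31ra (chr13:112580663-112580912, strand -): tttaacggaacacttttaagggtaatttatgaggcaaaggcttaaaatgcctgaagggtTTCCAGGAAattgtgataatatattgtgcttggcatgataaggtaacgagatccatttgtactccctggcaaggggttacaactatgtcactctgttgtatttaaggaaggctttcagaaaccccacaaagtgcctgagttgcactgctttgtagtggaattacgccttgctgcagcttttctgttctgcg
The STAT motif was found in the windows of Socs3, as TTCTTAGAA, and of Il31ra, as TTCCAGGAA, 154 to 146 and 191 to 183 bases before the start. It was found in 7.02% of all 32851 promoters of the same length. The NF-kB motif was found in 6 of the 9 genes, against 17.6% of all promoters. In Il6 it matched on both strands, as the overlapping GGGATTTTCC and GGATTTTCCC from 44 to 34 bases before the start. The AP-1 motif was found in Il6 and Lif, against 6.75% of all promoters. These shares count single promoters, whereas Lifr, with 2 windows, was counted as 1 gene. They were not matched for base composition, and G and C made up 42.0% to 82.4% of the members' windows. A match describes the letters of the window and is neither a site nor a cause. The RefSeq starts of Lif, Socs3, Il31ra, Osmr and Lifr lie inside the genes as the deposited table draws them. For Socs3, Il31ra, Osmr and Lifr the whole window does, matches included. Lifr had 2 RefSeq starts, and the NF-kB motif was found in the window of each.

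In untreated wild type skin the system was rich in its shared receptor and poor in ligands. Il6st stood highest, at 40.7 ± 1.5 FPKM, followed by Stat3 at 16.1 ± 0.284, Lifr at 10.6 ± 1.63 and Il6ra at 7.67 ± 0.445, and the ranges of these neighbours did not overlap. Socs3 at 3.89 ± 0.429 and Osmr at 3.72 ± 0.943 overlapped each other. Lif and Osm also overlapped, at 0.441 ± 0.144 and 0.313 ± 0.0467, above Il31ra at 0.166 ± 0.0319 and Il6 at 0.0559 ± 0.0321. The order in untreated skin labelled knockout had Il6st and Stat3 first and Il6 last as well. After MC903 in wild type, Socs3 and Stat3 headed the order with overlapping ranges, ahead of Il6st, and in skin labelled knockout Il6st, Stat3 and Socs3 led without overlap.

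**Figure D1:**
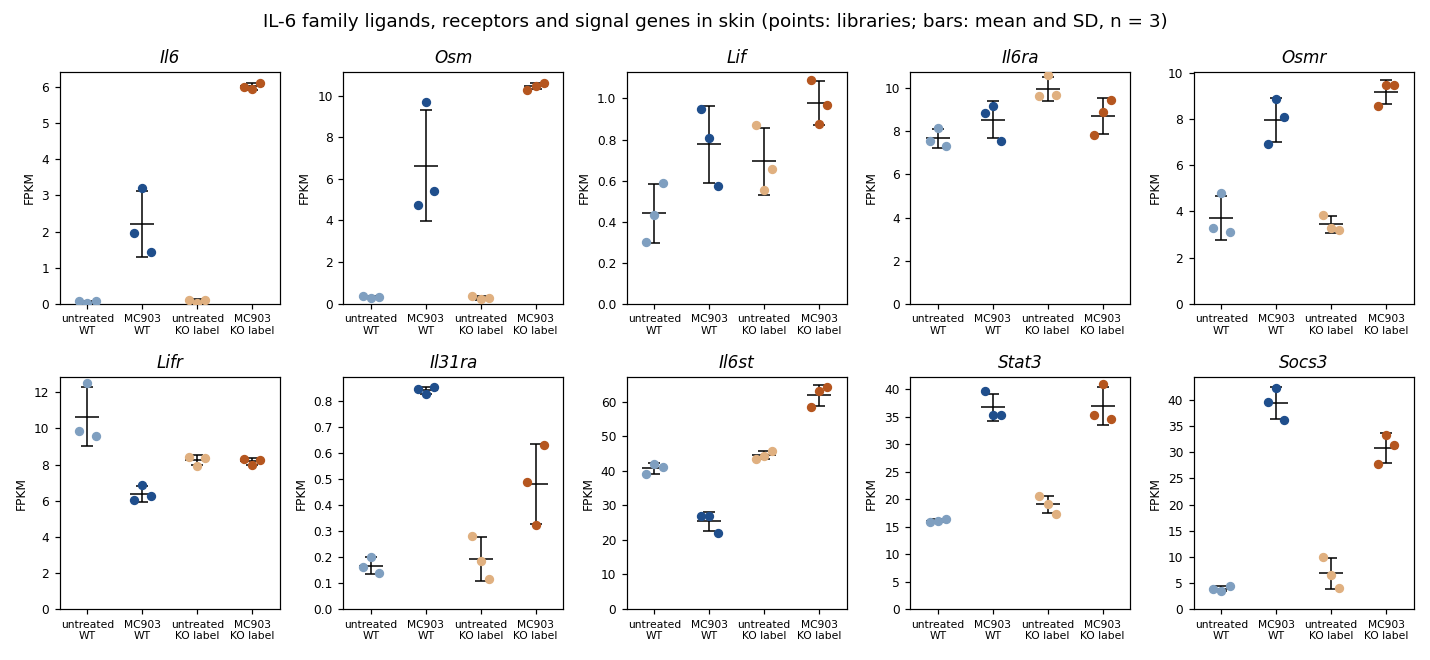
FPKM of the 10 genes in each skin library, 1 panel a gene with a linear axis from 0; points are libraries, bars the mean and SD of 3 libraries. Il6 and Osm are near 0 without treatment and highest after MC903 in skin labelled knockout, while Il6st is lowest after MC903 in wild type, at 22.1 to 27.0 FPKM.

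Comparing MC903-treated with untreated skin of wild type mice asks what the treatment does with the channel intact. Of the 10 genes 7 rose and 2 fell, where 63% of all genes tested passed, 32.6% higher and 30.3% lower. The median log2 fold change of the 10 genes was 1.01, against 0.02 over all genes tested. The ligands Il6 and Osm, the receptor chains Osmr and Il31ra and the signal genes Stat3 and Socs3 rose, Lif passed narrowly, Il6st and Lifr fell, and Il6ra did not pass. All 10 genes passed the filter on low values, and Il6, Osm and Il31ra did so through MC903 libraries alone. The calls of these 3 genes as higher therefore add no support to the count or the median.

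Among the ligands, Il6 (ENSMUSG00000025746, mm10 chr5:30013114-30019981) encodes the founding cytokine of the family. It read 0.0828, 0.0204 and 0.0646 FPKM in untreated wild type replicates 1, 2 and 3, which is 8 reads in all. After MC903 it read 1.97, 3.22 and 1.42, or 265 reads. Every treated library lay above every untreated one. The ratio of summed reads, scaled as for FPKM, was 39.4, with a 95% interval of 19.7 to 92.2 that covers counting error only. The log2 fold change was 2.23 ± 0.20 SE (limma adjusted p = 2.9e-06). Osm (ENSMUSG00000058755, chr11:4236420-4241026) read 0.354, 0.262 and 0.322 untreated and 4.76, 9.69 and 5.43 after MC903. The groups did not overlap, and replicate 2 stood apart at the top of the treated group, as it did for Il6. Mean Osm rose 21.2-fold, from 0.313 ± 0.0467 to 6.63 ± 2.67 (3.07 ± 0.20, limma adjusted p = 3.2e-07). Lif (ENSMUSG00000034394, chr11:4257557-4272514), which lies 16.5 kb from Osm with no gene between, read 0.300, 0.433 and 0.589 untreated and 0.948, 0.806 and 0.575 after MC903. Its groups overlapped, and its call (0.44 ± 0.17, limma adjusted p = 0.041) was lost in 13 of 23 alternatives (highest limma adjusted p = 0.37).

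The receptor chains moved in opposite directions. Osmr (ENSMUSG00000022146, chr15:6813577-6874969) read 3.26, 4.81 and 3.10 FPKM untreated and 6.94, 8.85 and 8.08 after MC903. No treated library fell into the untreated range, and the mean rose 2.14-fold (1.02 ± 0.15, limma adjusted p = 0.0001). Lifr (ENSMUSG00000054263, chr15:7090614-7197489), the chain that binds LIF, read 9.83, 12.5 and 9.58 untreated and 6.01, 6.88 and 6.25 after MC903. All 3 treated libraries were below all 3 untreated ones, and the mean fell 1.67-fold, from 10.6 ± 1.63 to 6.38 ± 0.446 (-0.69 ± 0.10, limma adjusted p = 0.00011). Il6st (ENSMUSG00000021756, chr13:112464070-112510086) read 39.0, 41.8 and 41.2 untreated and 27.0, 26.9 and 22.1 after MC903. The groups were far apart, and mean Il6st fell 1.60-fold (-0.68 ± 0.09, limma adjusted p = 4.4e-05) and did so in all 24 alternatives. Il31ra (ENSMUSG00000050377, chr13:112519898-112594360), the IL-31 chain, read 0.159, 0.201 and 0.138 untreated and 0.843, 0.824 and 0.850 after MC903. The treated libraries were close together and lay above the untreated ones, on 15 to 23 reads per untreated library and 76 to 81 per treated one. Mean Il31ra rose 5.05-fold (1.01 ± 0.16, limma adjusted p = 0.00024). Il6ra (ENSMUSG00000027947, chr3:89864059-89913196) stood at 7.67 ± 0.445 and 8.54 ± 0.856 and did not pass (0.14 ± 0.10, limma adjusted p = 0.22).

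The signal genes were higher in every treated library. Stat3 (ENSMUSG00000004040, chr11:100885098-100939540) read 15.9, 16 and 16.4 FPKM untreated and 39.6, 35.3 and 35.4 after MC903. The transcription factor's RNA thus rose 2.28-fold with no overlap (1.16 ± 0.09, limma adjusted p = 9.7e-07). Socs3 (ENSMUSG00000053113, chr11:117966079-117970047) read 3.89, 3.46 and 4.32 untreated and 39.6, 42.4 and 36.2 after MC903. The feedback inhibitor rose 10.1-fold (3.18 ± 0.23, limma adjusted p = 6.6e-07). Stat3 overlaps Stat5a and Il6ra overlaps Gm42809, each on the opposite strand, and the labels do not say that counting used strand. Il31ra overlaps the pseudogene Gm3226 on the same strand. The assignment of reads in these overlaps is uncertain.

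The RNA of cell types moved in the same comparison. Neutrophil markers summed to 10.4 to 31.8 FPKM untreated and 1012 to 1234 after MC903, with 5 of 5 tested markers higher and Ly6g listed at 0 in all untreated libraries. Macrophage and monocyte markers summed to 459 to 614 and 360 to 436 (2 of 6 higher and 2 lower), and T cell markers to 5.63 to 11.7 and 7.39 to 9.64 (1 of 5 tested higher and 3 lower). S100a8 and S100a9 of the neutrophil list are also made by inflamed keratinocytes. Fibroblast markers summed to 1118 to 2014 and 527 to 652 (7 of 7 lower), and endothelial markers to 50.4 to 65.7 and 31.0 to 33.3 (6 of 6 lower). Basal keratinocyte markers summed to 1726 to 2019 and 12362 to 17305, with 6 of 7 higher and 1 lower. Their part in the rise of Il6 and Osm or the fall of Il6st and Lifr was not tested.

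The same comparison in skin labelled knockout asks whether the response is there under that label. Of the 10 genes 7 rose and none fell, where 47.9% of all genes tested passed, 25% higher and 23% lower. The median of the 10 genes was 0.72, against -0.0014 over all genes tested. No gene was lower at an unadjusted p under 0.05 or by limma voom either. In 2 of 24 alternatives Il6ra did pass as lower (lowest limma adjusted p = 0.0233). Il6, Osm, Osmr, Il31ra, Stat3, Socs3 and Il6st rose, and Lif, Il6ra and Lifr did not pass. As Il6, Osm and Il31ra passed the filter through MC903 libraries alone, their calls as higher add no support to this count or median.

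Il6 read 0.105, 0.0216 and 0.111 FPKM in untreated replicates labelled knockout, 11 reads in all, and 5.99, 5.95 and 6.12 after MC903, 800 reads in all. The treated libraries were nearly equal and far above the untreated ones. The ratio of summed reads, scaled as for FPKM, was 76.1 (95% counting interval 42.3 to 153), and the log2 fold change 3.5 ± 0.20 SE (limma adjusted p = 4.2e-07). Osm read 0.383, 0.208 and 0.284 untreated and 10.3, 10.5 and 10.6 after MC903. It rose 35.9-fold with the same tight treated group (3.80 ± 0.20, limma adjusted p = 2.6e-07). Lif read 0.871, 0.554 and 0.654 untreated and 1.09, 0.878 and 0.969 after MC903 (0.32 ± 0.17, limma adjusted p = 0.15).

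Il6st here moved the other way from wild type. It read 43.4, 44.3 and 45.7 FPKM untreated and 58.3, 63.1 and 64.1 after MC903. Every treated library was above every untreated one, and the mean rose 1.39-fold (0.47 ± 0.09, limma adjusted p = 0.0011). Osmr read 3.84, 3.27 and 3.20 untreated and 8.55, 9.45 and 9.48 after MC903, a 2.67-fold rise without overlap (1.3 ± 0.15, limma adjusted p = 4.5e-05). Lifr read 8.42, 7.91 and 8.38 untreated and 8.29, 7.96 and 8.26 after MC903. These groups overlapped almost fully (-0.01 ± 0.10, 95% interval -0.23 to 0.21, limma adjusted p = 0.94). Il31ra read 0.280, 0.185 and 0.114 untreated and 0.486, 0.322 and 0.629 after MC903. It rose 2.48-fold on 12 to 31 and 33 to 66 reads per library (0.49 ± 0.16, limma adjusted p = 0.027), which was lost in 5 of 22 alternatives (highest limma adjusted p = 0.102). Il6ra stood at 9.96 ± 0.544 and 8.72 ± 0.835 (-0.18 ± 0.10, limma adjusted p = 0.14). Its treated libraries, at 7.82 to 9.47, all lay below the untreated ones, at 9.62 to 10.6.

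Stat3 rose from 19.0 ± 1.62 to 37 ± 3.5 FPKM (0.94 ± 0.09, limma adjusted p = 1.5e-05). Socs3 read 10.001, 6.44 and 4.01 untreated and 27.7, 33.2 and 31.5 after MC903. Replicate 1 stood above the other untreated libraries, yet all 3 were below the treated ones (2.18 ± 0.23, limma adjusted p = 3.2e-05). In these groups neutrophil markers summed to 27.9 to 189 and 2106 to 2744, macrophage and monocyte markers to 578 to 634 and 927 to 1403 (6 of 6 higher), and endothelial markers to 55.4 to 60.6 and 63.3 to 85.1 (2 of 6 higher). Fibroblast markers summed to 4456 to 5158 and 1699 to 2183 (4 of 7 lower and 1 higher). Those of basal keratinocytes summed to 2012 to 2302 and 3489 to 4877 (3 of 7 higher and 2 lower). The part of all these cell types in the changes was not tested.

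The comparison of genotypes without treatment asks what the label does at rest. It shares its libraries with the comparisons above. Il6ra was higher and Lifr lower in skin labelled knockout, so 2 of 10 genes passed, where 11.7% of all genes tested passed, 7.15% higher and 4.55% lower. Il6ra read 7.56, 8.16 and 7.30 FPKM in wild type and 9.62, 10.6 and 9.68 in skin labelled knockout, without overlap (0.36 ± 0.10, limma adjusted p = 0.037). Lifr stood at 10.6 ± 1.63 and 8.24 ± 0.284 (-0.34 ± 0.10, limma adjusted p = 0.048). Socs3 had the largest difference that did not pass, 0.66 ± 0.23 (limma adjusted p = 0.093), and Il6 (0.06), Osm (-0.04), Osmr (-0.08) and Il31ra (0.05) had the smallest. Untreated Il6, Osm and Il31ra all read under the 0.5 FPKM added before the log, so their differences come out too small. Mean Il6 was 1.42-fold higher under the label, on 11 reads against 8. In this comparison fibroblast markers summed to 1118 to 2014 FPKM in wild type and 4456 to 5158 in skin labelled knockout (5 of 7 higher), and adipocyte markers to 267 to 401 and 162 to 180 (5 of 5 lower). Suprabasal keratinocyte markers summed to 1125 to 1989 and 3133 to 3580 (3 of 6 higher) and neutrophil markers to 10.4 to 31.8 and 27.9 to 189 (3 of 5 higher), and the part of these in the 2 calls was not tested. Both calls were fragile: Il6ra lost it in 11 of 24 alternatives (highest limma adjusted p = 0.139) and Lifr in 15 of 24 (highest 0.153).

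The comparison of genotypes after MC903 asks where the treated skins differ. Il6, Osm, Il6st and Lifr were higher and Il31ra lower in skin labelled knockout, so 5 of 10 genes passed, where 52.1% of all genes tested passed, 25.9% higher and 26.1% lower. Il6st differed most firmly: the lowest library labelled knockout, at 58.3 FPKM, exceeded the highest wild type library, at 27.0, and the means differed 2.44-fold (1.27 ± 0.09, limma adjusted p = 2.5e-06). Il6 was 2.73-fold higher, 6.02 ± 0.0891 against 2.20 ± 0.919, with no overlap (1.32 ± 0.20, limma adjusted p = 0.00026). Osm was 1.58-fold higher, 10.5 ± 0.161 against 6.63 ± 2.67, and its groups were separated by 0.68 ± 0.20 on the log2 scale (limma adjusted p = 0.015). Without MC903 wild type replicate 1 or 3 the Osm call ended (limma adjusted p = 0.066 and 0.059). Lifr stood at 8.17 ± 0.184 against 6.38 ± 0.446 (0.34 ± 0.10, limma adjusted p = 0.015), lost without MC903 wild type replicate 1 (limma adjusted p = 0.055). Il31ra stood at 0.479 ± 0.153 against 0.839 ± 0.0137 (-0.46 ± 0.16, limma adjusted p = 0.032), and this call was lost in 9 of 23 alternatives (highest limma adjusted p = 0.189). Osmr (0.20 ± 0.15), Lif (0.22 ± 0.17), Il6ra (0.03 ± 0.10), Stat3 (0.01 ± 0.09) and Socs3 (-0.35 ± 0.23) did not pass, with limma adjusted p-values of 0.28, 0.30, 0.82, 0.97 and 0.23.

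Fibroblast markers summed to 1699 to 2183 FPKM in treated skin labelled knockout and 527 to 652 in treated wild type (7 of 7 higher), and endothelial markers to 63.3 to 85.1 and 31.0 to 33.3 (6 of 6 higher). Macrophage and monocyte markers summed to 927 to 1403 and 360 to 436 (6 of 6 higher), basophil markers to 69.5 to 92.6 and 12.7 to 14.8 (3 of 3 higher) and neutrophil markers to 2106 to 2744 and 1012 to 1234 (3 of 5 higher). Basal keratinocyte markers summed to 3489 to 4877 and 12362 to 17305 (7 of 7 lower). These marker sums moved in the same comparison as Il6, Osm and Il6st, and their part was not tested.

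**Figure D2:**
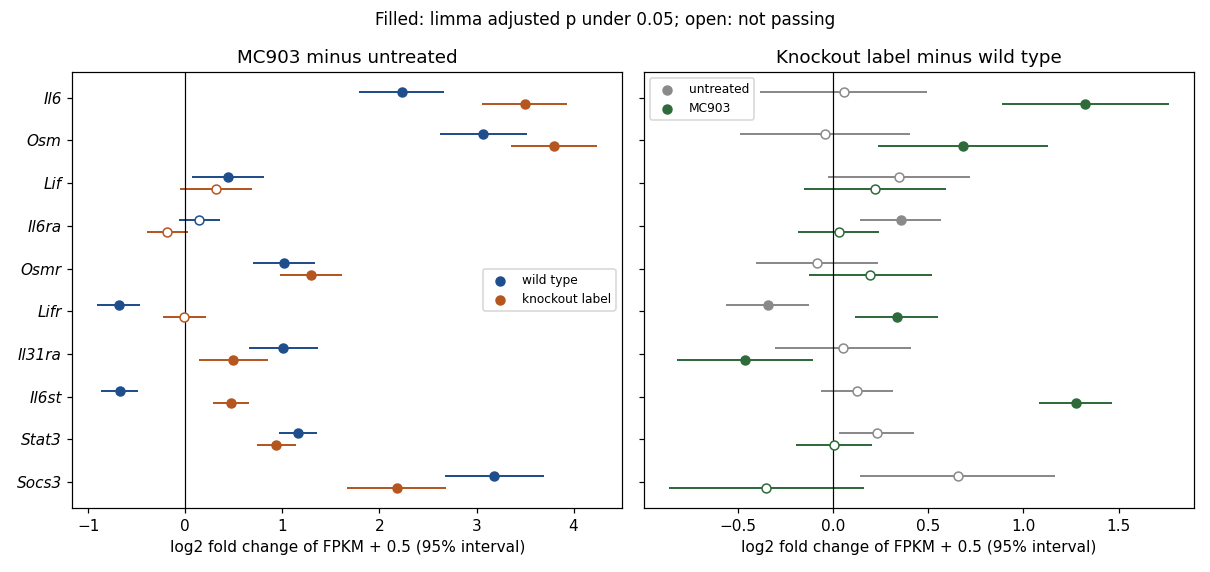
Log2 fold change of FPKM + 0.5 with its 95% interval for MC903 against untreated skin (left) and skin labelled knockout against wild type (right); filled points have a limma adjusted p under 0.05. Il6st lies below 0 in wild type and above 0 in skin labelled knockout, at -0.68 and 0.47.

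Whether the genotypes differ in their MC903 response was tested as an interaction term, in which 39.7% of all genes tested passed, 20% higher and 19.7% lower. It passed for 4 of the 10 genes, 3 higher and 1 lower in skin labelled knockout. Il6st had the firmest difference (1.15 ± 0.12, limma adjusted p = 0.0001), and it passed in every alternative. For Lifr the difference was 0.68 ± 0.14 (limma adjusted p = 0.0034), with a fall in wild type and overlapping treated and untreated libraries in skin labelled knockout. The response of Il6 was larger under the label (1.27 ± 0.28, limma adjusted p = 0.005), but not by limma voom on the recovered reads (1.16, limma adjusted p = 0.32). That of Socs3 was smaller (-1.01 ± 0.33, limma adjusted p = 0.032), which was lost in 10 of 23 alternatives (highest limma adjusted p = 0.104). Osm did not pass (0.73 ± 0.29, limma adjusted p = 0.065). It did in 4 of 23 alternatives, most firmly without MC903 wild type replicate 2 (1.01, limma adjusted p = 0.0015), and the highest limma adjusted p was 0.31. Il6ra, Il31ra, Osmr, Lif and Stat3 did not pass either (limma adjusted p of 0.078, 0.097, 0.30, 0.71 and 0.18).

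Ratios within a library do not depend on how libraries are scaled to each other. Osmr over Lifr, the balance of the partner chains of gp130, was 0.324 to 0.384 in untreated wild type and 1.15 to 1.29 after MC903, and 0.381 to 0.457 and 1.03 to 1.19 in skin labelled knockout. In either genotype the treated ranges lay above 1 and the untreated ranges below it, a crossing that depends on the gene lengths used. Il6st over Il6ra was 5.12 to 5.65 in untreated wild type and 2.92 to 3.05 after MC903. In skin labelled knockout it was 4.18 to 4.72 untreated and 6.77 to 7.46 after MC903, so this ratio moved in opposite directions. Il6st over Osmr fell in value in both, to 2.74 to 3.89 in treated wild type and 6.68 to 6.83 in treated skin labelled knockout, from 8.70 to 13.3 and 11.3 to 14.3. Socs3 over Stat3 was 0.217 to 0.263 untreated and 0.999 to 1.2 treated in wild type, and 0.231 to 0.485 and 0.785 to 0.910 in skin labelled knockout. These ratios are given as a description and were not tested.

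**Figure D3:**
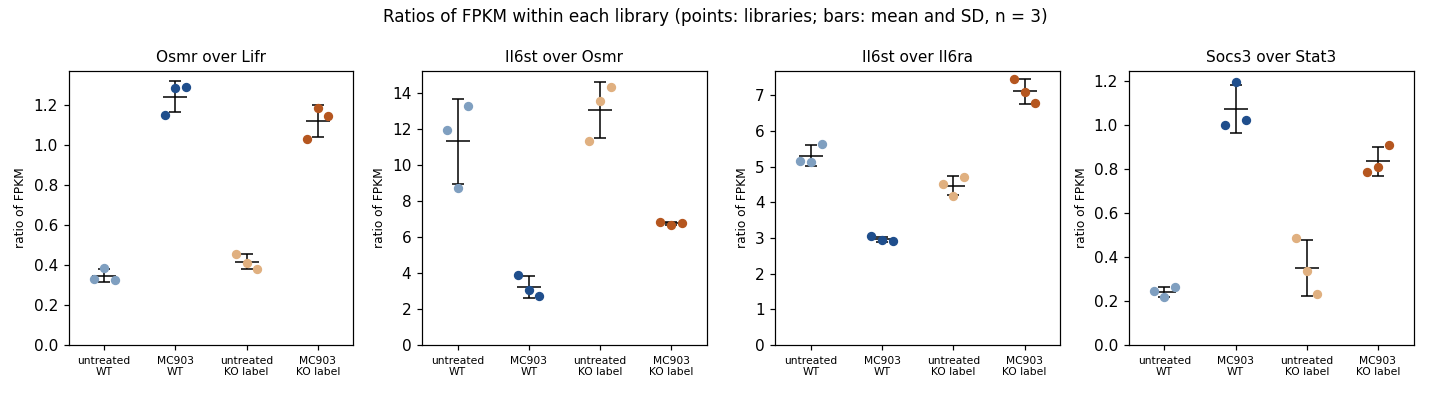
Ratios of FPKM of 2 genes within each library, by group, on linear axes from 0; points are libraries, bars the mean and SD of 3 libraries. Osmr over Lifr is above 1 in all 6 treated libraries, and Il6st over Il6ra is lowest in treated wild type, at 2.92 to 3.05, and highest in treated skin labelled knockout, at 6.77 to 7.46.

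For the lists that follow, the shares of all genes tested that passed were 63% for MC903 in wild type, 47.9% in skin labelled knockout, 11.7% and 52.1% between genotypes untreated and after MC903, and 39.7% for the difference of response. Of the other cytokines and receptors of the family, 8 of 11 could be tested, and their counts of 2, 3, 1, 4 and 1 in that order were at or below these shares except for the 1 of 8 untreated. In wild type 2 rose after MC903 and none fell (limma, median -0.02), with 1 lower at an unadjusted p under 0.05 and 0 by limma voom. Clcf1, a ligand of the ciliary neurotrophic factor receptor, went from 2.04 ± 0.213 to 9.45 ± 1.61 FPKM (1.96 ± 0.15, limma adjusted p = 1e-06), and Il11, a ligand of its own gp130 receptor complex, from 0.288 ± 0.163 to 0.671 ± 0.238 (0.57 ± 0.20, limma adjusted p = 0.029). In skin labelled knockout the same 2 genes rose, Clcf1 to 4.26 ± 0.47 (0.93 ± 0.15, limma adjusted p = 0.00052) and Il11 to 0.771 ± 0.147 (limma adjusted p = 0.024). There the ligand Ctf1 fell from 4.72 ± 0.214 to 2.09 ± 0.678 (-1.04 ± 0.19, limma adjusted p = 0.0011; list median -0.09). Il11 passed the filter on low values through MC903 libraries alone, so its calls as higher add no support to these counts. The response of Clcf1 was smaller under the label (-1.03 ± 0.21, limma adjusted p = 0.0034), the single gene of this list that passed for the difference. Between genotypes Ebi3, the subunit that IL-27 and IL-35 share, was higher under the label untreated (1.07 ± 0.22, limma adjusted p = 0.013), the single gene of 8 to pass. After MC903 2 genes were higher and 2 lower (median 0.17), with Ebi3 at 2.14 ± 0.682 against 1.01 ± 0.163, Il27ra at 1.01 ± 0.289 against 0.449 ± 0.0414 and Clcf1 at 4.26 ± 0.47 against 9.45 ± 1.61 (limma adjusted p = 0.013, 0.011 and 0.00019). Il31, the ligand of IL31RA, was named after its values were seen: it was listed at 0 in 11 libraries and had 2 reads in 1 treated library labelled knockout.

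Of 15 JAK and STAT signalling genes and regulators, 6 rose and 4 fell in wild type after MC903 (median 0.16), near the 63% of all genes. Gab1, an adaptor of growth factor and cytokine receptors, went from 13 ± 0.942 to 22.0 ± 1.52 FPKM, and Cish, an inhibitor induced by STAT5, from 1.91 ± 0.227 to 4.92 ± 0.0932 (limma adjusted p = 1.3e-05 and 0.00029). In skin labelled knockout 6 rose and 1 fell (median 0.29), near the 47.9% of all genes. Jak2 went from 16.8 ± 1.10 to 43.1 ± 2.78 and Jak1 from 27.5 ± 0.848 to 41.2 ± 1.71, and Pias3, an inhibitor of STAT3, fell from 11 ± 0.283 to 6.77 ± 0.142 (limma adjusted p = 1.6e-06, 5.5e-05 and 5.2e-05). The difference of response passed for 7, 4 higher and 3 lower, against 39.7% of all genes, among them the kinases Jak2 (0.82 ± 0.13) and Jak1 (0.45 ± 0.09), which bind gp130 chains, and Gab1 (-0.74 ± 0.11) (limma adjusted p = 0.00078, 0.0037 and 0.00063). After MC903 7 were higher and 2 lower under the label (median 0.11), against 52.1% of all genes, including Jak2, Jak1 and Stat5a (limma adjusted p = 1.7e-05, 0.00018 and 9e-05). Stat5a overlaps Stat3. Without treatment none of the 15 passed by limma (median 0.19), with 6 higher and 0 lower at an unadjusted p under 0.05 and 1 passing by limma voom.

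Of 22 genes known as STAT3 targets or acute phase genes, 18 rose and 2 fell in wild type after MC903 (median 1.26, against 0.02 over all genes) and 19 rose and none fell in skin labelled knockout (median 1.11, against -0.0014; 0 lower also at an unadjusted p under 0.05 and by limma voom). These counts stand against 63% and 47.9% of all genes. Saa1 and Saa3, counted among those that rose in both, passed the filter on low values through MC903 libraries alone. Their calls as higher therefore add no support to these counts. Hif1a, a hypoxia factor, rose in both, from 20.3 ± 2.10 to 89.2 ± 16.3 FPKM and from 20.3 ± 0.631 to 100 ± 12 (2.10 ± 0.13 and 2.27 ± 0.13, limma adjusted p = 2.4e-07 and 5.2e-07). In wild type Junb, an immediate early gene, rose from 20.1 ± 5.90 to 202 ± 7.16 and Saa3, an acute phase protein, from 0.0326 ± 0.0118 to 34.8 ± 11.7 (limma adjusted p = 3e-07 and 3.7e-07). In skin labelled knockout Lcn2, an iron carrier of innate defence, rose from 2.98 ± 0.99 to 20.1 ± 2.75 and Timp1, a protease inhibitor, from 18.1 ± 0.115 to 146 ± 8.70 (limma adjusted p = 1.8e-06 and 3.3e-06). Without treatment 5 were higher under the label (median 0.32), against 11.7% of all genes: Junb, Pim1, Icam1, Fgl2 and Cebpb. After MC903 9 were higher and 7 lower there (median 0.18), against 52.1% of all genes, among them Fgl2 (1.31 ± 0.13), Lbp (0.99 ± 0.13) and Timp1 (1.37 ± 0.23), all higher (limma adjusted p = 2.1e-05, 8.3e-05 and 0.00051). The difference of response passed for 9, 3 higher and 6 lower (median -0.16), about the 39.7% of all genes. The kinase gene Pim1 (-1.18 ± 0.18), Junb (-2.20 ± 0.31) and Cebpb (-1.67 ± 0.25), an acute phase factor, were among the 6 that were lower (limma adjusted p = 0.00056, 0.00039 and 0.00057).

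**Figure D4:**
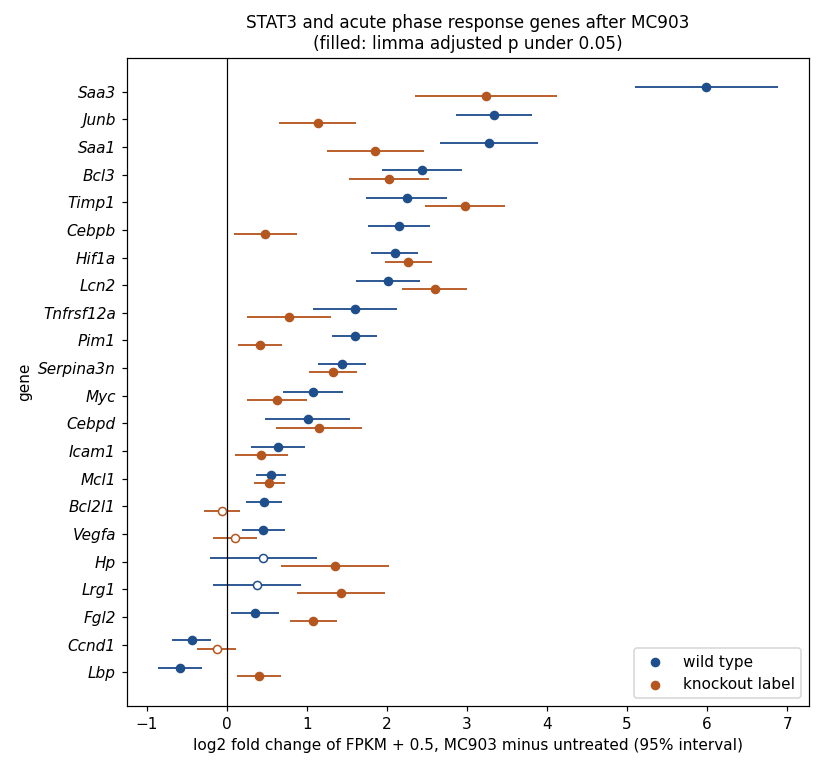
Log2 fold change of FPKM + 0.5 after MC903 with 95% intervals for 22 STAT3 target and acute phase genes, in wild type and in skin labelled knockout; filled points have a limma adjusted p under 0.05. Junb and Cebpb rise more in wild type (3.34 and 2.15) than in skin labelled knockout (1.14 and 0.48).

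The genes most alike to each member across the 12 libraries were found by the root mean square (RMS) difference of centred log2(FPKM + 0.5) over 12863 candidates with a mean of at least 1 FPKM. Osm was nearest to Cxcl3 (0.24), Tnfsf11 (0.30) and Fgf23 (0.35), and Il6 to Fgf23 (0.25), Cd300lf (0.27) and Hdc (0.27). Osmr was near to Casp4 (0.13) and Pxk (0.15), and Il6st to Lrrc8c (0.09), Ifnar1 (0.09) and Evi2a (0.10). Socs3 was nearest to Smox (0.29), Dusp5 (0.29) and Ptges (0.30). Stat3, with Ptpn1 (0.08), Arpc2 (0.09) and Eif4a1 (0.09), Il6ra, with Cpt1a (0.08), Tyk2 (0.09) and Gpr107 (0.09), and Lifr, with Ralgapa2 (0.06), Pibf1 (0.07) and Zbtb38 (0.08), had smaller distances. A distance scales with how much the gene itself varies, and that spread around its mean was 1.75 for Osm, 1.52 for Il6, 1.39 for Socs3, 0.60 for Osmr, 0.54 for Stat3, 0.46 for Il6st, 0.26 for Lifr and 0.16 for Il6ra. Against its spread the nearest gene was farthest for Il6ra. For Il31ra and Lif, with mean levels under 1 FPKM, none was sought. The points share the 12 libraries, so these distances describe the libraries and are not evidence of a common control.

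Scaling between libraries bears on small changes. Under TPM scaling the all-gene median shifted by -0.39 for MC903 in wild type and -0.17 in skin labelled knockout, and by 0.24 and 0.23 for the genotype comparison after MC903 and the difference of response. It left 26.3% and 33.3% of called genes higher in the MC903 comparisons, against 51.8% and 52.1% as deposited, and 73.7% and 71.9% in the other 2, against 49.8% and 50.3%. Scaling by total reads moved the median by -0.18 in wild type and 0.12 for the difference of response and left 39.8% and 62.0% higher, and for the untreated genotype comparison 49.6%, against 61.1%. Il6st kept its directions under TPM (-1.15 in wild type, 0.28 in skin labelled knockout, limma adjusted p = 0.045 for the latter), as did Lifr in wild type (-1.14). Relative to the median of all genes in each setting, Il6st stood lower in wild type and higher in skin labelled knockout under both scalings.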

How the data were processed

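RNA of whole skin was sequenced in 12 libraries. The deposited table holds FPKM values per gene, and gene length is the other number used from it. Per the submitters' processing notes, mm10 and featureCounts were used, and poly-A RNA with random hexamers per the labels' protocols; which aligner, annotation release and FPKM tool made it is not given in the sources used here. FPKM times length gave whole reads for 100% of values (tolerance 0.01), with 16869716 to 18485698 reads per library. Of 15 samples 3, from dorsal root ganglion, are not analysed here.

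Genes with an FPKM of at least 0.5 in at least 3 libraries (17646) were fitted with limma 3.58.1 in R 4.3.3 on log2(FPKM + 0.5), with 4 groups, 8 residual degrees of freedom, eBayes with a mean trend, two-sided tests and Benjamini-Hochberg adjustment within each of 5 comparisons. The fit was also run on simulated data with equal spread beyond read sampling for every gene and changes in few genes of a single group. That setting is simpler than these libraries, so it does not measure error rates here. Named genes are the 10 members, up to 3 passing genes of each list and comparison by adjusted p, and the 3 most alike genes; 2 genes named by these rules are not reported here, and the members and lists were chosen with earlier results of these data known. Tables were made with pandas 2.3.3 and numpy 2.4.6 in Python 3.11.15 and figures with matplotlib 3.10.9. The alternatives were other pseudocounts, filters and scalings, limma voom on recovered reads, robust moderation, library weights, a replicate block, fits of the groups compared alone and each library left out; total-read scaling was added after the data were seen. Libraries of 1 group differed beyond read sampling (chi-square per degree of freedom 6.46 to 60.1).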

Additional observations from a re-analysis of the deposited data

Results flagged for a closer look

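The response to MC903 differed between genotypes, by a test of the difference itself (limma interaction term), for 4 of the 10 genes. Il6st fell in all 3 treated wild type libraries relative to the untreated ones and was higher in all 3 treated libraries labelled knockout, a difference of 1.15 on the log2 scale (limma adjusted p = 0.0001). Il6 had a difference of 1.27 (limma adjusted p = 0.005), Lifr of 0.68 (limma adjusted p = 0.0034) and Socs3 of -1.01 (limma adjusted p = 0.032), each as labelled knockout minus wild type. The calls of Il6st and Lifr held in every alternative, that of Il6 was lost under limma voom (limma adjusted p = 0.32) and that of Socs3 in 10 of 23. Differences of response passed for 39.7% of all genes tested, so 4 of 10 is near the share of all genes.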

How the results depend on the processing

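Over 50 results of the 10 genes and 1176 alternatives, 1073 kept direction and side of the threshold, 67 ended a call, 18 made one and 18 turned the direction; 21 results kept theirs in every alternative. The 10-gene counts that moved were these. For genotypes without treatment, 2 genes passed, but 0 with no filter, with TPM and with only the groups compared, 1 with total-read scaling, 1 with a replicate block, 6 with library weights, and 0 to 1 with a library left out. For genotypes after MC903 the 5 became 2 to 5 with a library left out, 2 without MC903 wild type replicate 1 and 3 without replicate 3. For the difference of response the 4 became 7 with library weights. The directions that turned were those of Il6ra after MC903 in wild type (TPM -0.31, total-read scaling -0.061), of Il6 (-0.0032) and Osmr (0.031) without treatment and Il6ra after MC903 between genotypes (-0.0026) with library weights, and of Lif (0.015) and Stat3 (0.056) for the difference under TPM. With a library left out, the ranges that crossed 0 were -0.038 to 0.0073 for Lifr after MC903 in skin labelled knockout, -0.187 to 0.093 for Osmr, -0.039 to 0.134 for Il31ra and -0.125 to 0.035 for Osm between untreated genotypes, and -0.070 to 0.059 for Stat3 and -0.050 to 0.102 for Il6ra between treated genotypes. The cause of these shifts was not tested. Numbers did not pair the libraries: 3 of 18 pairs correlated above 0.1 and a library correlated best with its own number in 13 of 36 cases; a replicate block left 8, 7, 1, 4 and 4 of the 10 genes passing in the order of the comparisons above, against 9, 7, 2, 5 and 4. Of the lists, the 2 other family genes that passed in wild type became 1 with the stricter filter, 5 with TPM, 4 with total-read scaling, 3 with the block and 1 with only these groups, and without treatment library weights gave 8 JAK and STAT genes, against 0, and 12 response genes, against 5. At 1 to 17 reads per library, untreated Il6 and Osm set the size of their folds, and Il31ra rests on 12 to 81 reads.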

Other observations

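Some members are neighbours on a chromosome. Il6st and Il31ra lie 9.811 kb apart on chromosome 13 on opposite strands with no gene between, and in wild type skin after MC903 Il31ra rose (log2 1.01) while Il6st fell (-0.68). In skin labelled knockout both rose, by 0.49 and 0.47. Osm and Lif lie 16.5 kb apart on chromosome 11, and the mean ratio of Osm to Lif went from 0.777 to 8.83 in wild type and from 0.416 to 10.8 in skin labelled knockout. Osmr and Lifr lie 216 kb apart on chromosome 15 with 1 gene between, and in wild type they moved in opposite directions (1.02 and -0.69). In skin labelled knockout Osmr rose and Lifr did not pass (1.3 and -0.01). The ratio of Osm to Il6 in treated skin was 2.42 to 3.81 in wild type and 1.72 to 1.76 in skin labelled knockout, so these ranges did not overlap.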
